A study of Rattus norvegicus with 6 samples.

Results

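The Hippo pathway was described through 10 genes, chosen by symbol: the kinases Lats1 and Lats2, the angiomotin Amotl2, the coactivators Yap1 and Wwtr1, the transcription factors Tead1, Tead2, Tead3 and Tead4, and the target gene Ankrd1. All 10 were found in the deposited count table, which lists 19825 genes, and all 10 passed the filter on low counts that left 12985 genes for testing. The RNA came from H9C2, a line derived from embryonic rat heart, in 3 control libraries (NC 1, 2 and 3) whose label gives a transfection with empty vector, and in 3 libraries (siPUM2 1, 2 and 3) of cells given small interfering RNA against PUM2. The labels name no other allele, agent, age or time for either group, and are silent on whether replicates were grown as separate cultures. All p-values therefore measure the spread between these libraries, which may be technical. The comparison asks which of these messages differ in cells given siRNA against PUM2, an RNA-binding protein that represses messages. Whether the NC cells received a control siRNA is not given in the sources used here, so an effect of siRNA transfection itself and one of lower PUM2 cannot be told apart.

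In the Hippo pathway the kinases encoded by Stk3 and Stk4, with the scaffold SAV1, activate LATS1 and LATS2, which work with MOB1 proteins. The LATS kinases phosphorylate the coactivators YAP (Yap1) and TAZ (Wwtr1), which are then held in the cytoplasm or degraded. Unphosphorylated YAP and TAZ enter the nucleus and bind TEAD factors, which recognise the element GGAATG, also written CATTCC on the other strand and known in muscle genes as the M-CAT element. The pathway is known for limiting the growth of the heart and for regulating the proliferation of myoblasts. Its activity is set largely by phosphorylation and location of proteins, which RNA levels do not measure.

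To show what such an element looks like in genes of this pathway, the 200 bases before the annotated start are given for 2 members and for the classic targets Ccn1 and Ccn2, 5′ to 3′ on the gene's own strand, from RefSeq (GRCr8, a later assembly than the one named in the submitters' notes). Capitals mark GGAATG or CATTCC.
Amotl2 (chr8:112182426-112182625, plus strand): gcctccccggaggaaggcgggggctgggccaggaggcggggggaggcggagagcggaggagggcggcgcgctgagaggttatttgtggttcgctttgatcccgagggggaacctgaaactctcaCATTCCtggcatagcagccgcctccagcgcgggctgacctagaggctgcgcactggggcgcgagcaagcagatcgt
Yap1 (chr8:13451438-13451637, minus strand): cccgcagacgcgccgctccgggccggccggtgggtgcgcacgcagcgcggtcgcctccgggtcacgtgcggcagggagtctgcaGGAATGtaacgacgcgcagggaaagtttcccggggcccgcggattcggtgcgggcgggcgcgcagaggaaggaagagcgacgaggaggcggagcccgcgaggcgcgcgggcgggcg
Ccn1 (chr2:237225690-237225889, minus strand): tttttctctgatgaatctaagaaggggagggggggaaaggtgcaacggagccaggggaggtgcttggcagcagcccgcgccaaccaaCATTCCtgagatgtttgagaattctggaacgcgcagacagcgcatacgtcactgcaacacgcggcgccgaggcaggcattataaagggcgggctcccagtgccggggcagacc
Ccn2 (chr1:22624615-22624814, minus strand): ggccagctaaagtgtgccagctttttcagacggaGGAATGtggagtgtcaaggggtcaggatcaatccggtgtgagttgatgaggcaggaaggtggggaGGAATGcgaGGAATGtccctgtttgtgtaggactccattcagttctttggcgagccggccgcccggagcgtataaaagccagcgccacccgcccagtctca
The Ccn2 window holds 3 matches, starting 166, 101 and 92 bases before the start. Amotl2, Ccn1 and Yap1 each hold 1 match, which starts 76, 113 and 116 bases before it. RefSeq windows of 300 bases (250 before to 50 after the start) were matched by symbol for 5 members, and 2 of these 5 held the element on either strand, as did 4 of the 14 windows of other target genes and 14.2% of all 33469 windows. Among further regulators of the pathway, 10 of 43 windows held it, of called and uncalled genes alike. Of the called members, Wwtr1 had a window without a match, and no window was found for Ankrd1. A match of 6 letters is a description and not a binding site. None of the 4 genes printed here passed the test between siPUM2 and NC, but Nuak2, another target with a match, was called lower.

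The targeted message was checked first. Pum2 stood at 223, 228 and 225 CPM (gene counts relative to the size of the library, with TMM scaling) in the NC libraries, against 127, 126 and 120 CPM in siPUM2 1, 2 and 3, and the groups did not overlap. Total counts ran from 27704702 to 30579237 per library, and 28.4% of all tested genes were called at an adjusted p under 0.05 by the quasi-likelihood test of edgeR, adjusted after Benjamini and Hochberg, 15.1% higher and 13.3% lower in siPUM2. The library siPUM2 3 stood somewhat apart within its group (chi-square over degrees of freedom 3.82 and 3.55 against the other siPUM2 libraries, which gave 2.08 between themselves), and without it the log2 fold changes of Ankrd1 and Wwtr1 were 0.29 and -0.23, both called. The labels call the cells cardiomyocytes. Of 11 cardiomyocyte markers in the table, Tnnt2 was at 298 ± 28.8 CPM (SD, n = 3) in NC and Nkx2-5 at 19.7 CPM, whereas the defining sarcomere and calcium genes Myh6, Myh7, Actn2, Tnni3 and Ryr2 were all under 1 CPM. Of 8 skeletal myoblast markers in the table, Itga7, Cdh15 and Myod1 were at 403, 215 and 81.3 CPM in NC, Myog at 20.1 CPM, and Myh3 and Chrna1 at 1.63 and 0.303 CPM, while Myf5 and Pax7 had no match. Summed over each list, endothelial markers stayed between 2.20 and 2.64 CPM in all 6 libraries, macrophage markers between 36.8 and 40.8 CPM, nearly all of it Cd14, and fibroblast markers between 16529 and 16991 CPM, mostly collagen I. Several defining genes of these types were near 0, among them Cdh5 (endothelium), Csf1r (macrophages) and Pdgfra (fibroblasts), at mean levels of 0, 0.529 and 0.0110 CPM in NC. Thy1, also on the fibroblast list, was not low, at 713 CPM in NC and 881 CPM in siPUM2 (log2 fold change 0.31, adjusted p = 9.02e-11, edgeR).

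Of the 10 Hippo genes, 1 rose, 1 fell and 8 did not pass the test. The target gene Ankrd1 was higher in every siPUM2 library, and Wwtr1, which encodes TAZ, was lower in every one. That is 2 of 10 members called, against 28.4% of all tested genes and 37.3% of the 8718 tested genes with a mean of at least 10 CPM, a level all members exceeded. In CPM the groups did not overlap in 3 members (Ankrd1, Wwtr1 and Yap1), against 39.9% of all tested genes. The median log2 fold change of the 10 members was 0.03, beside 0.0011 for all tested genes. The 8 members that were not called had log2 fold changes of at most 0.07 in size. Their 95% intervals from the edgeR fit, unadjusted for the number of genes, all lay between -0.12 and 0.15. Both outer bounds were those of Lats1, which leaves room for a change of up to 1.11-fold in that gene. The upper bound of Tead2 also rounds to 0.15, and no uncalled member left room for more. The unadjusted interval of Tead1, 0.007 to 0.13, did not include 0.

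**Figure D1:**
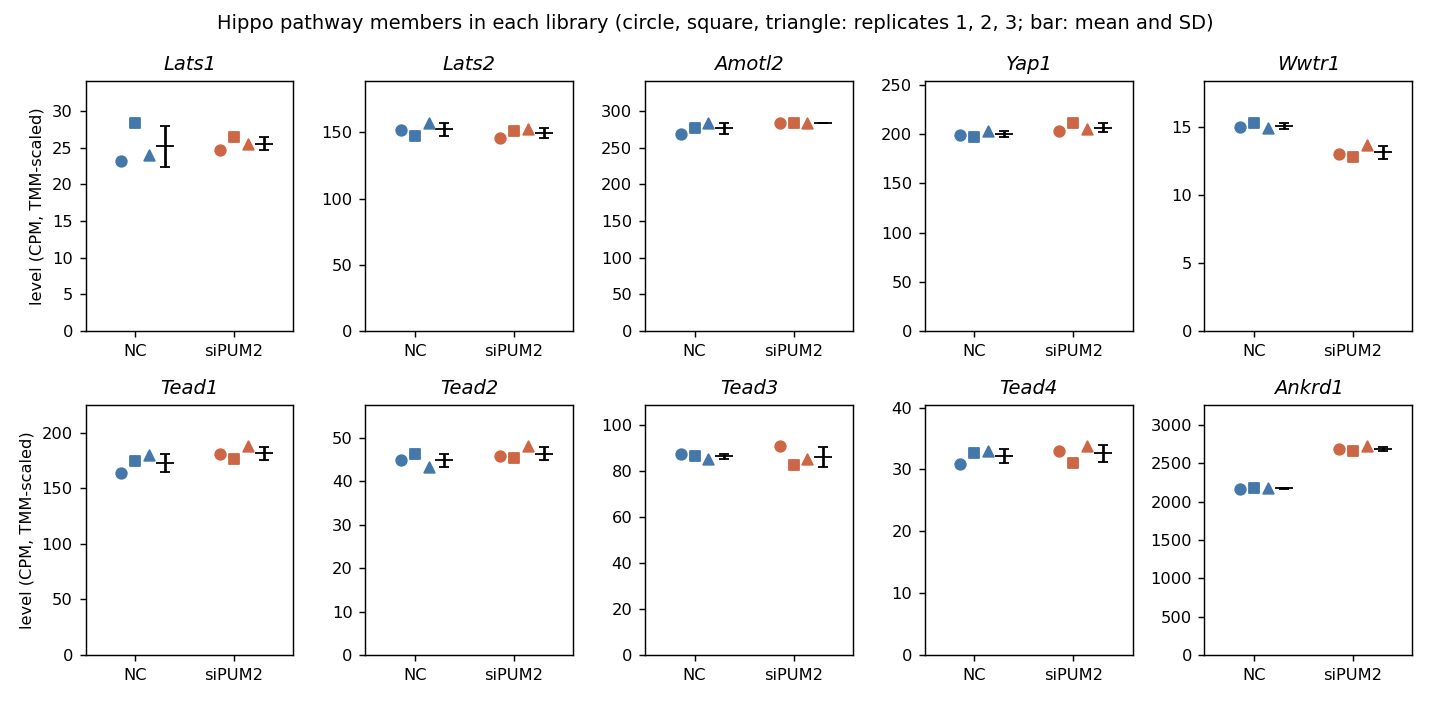
Level of each of the 10 genes in CPM (vertical axes from 0, a separate scale for each gene) in the 3 NC and 3 siPUM2 libraries, with points for libraries and a bar for the mean and SD. Ankrd1 stands clearly higher and Wwtr1 lower in siPUM2, while the points of most other genes lie at like heights in both groups.

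Levels between genes were compared per length, in FPKM, the deposited values scaled by gene length and library size. Over all 6 libraries the order was Ankrd1 (mean 1075 FPKM), Amotl2 (51.3), Yap1 (40.6), Tead3 (29.8), Lats2 (26.1), Tead2 (18.3), Tead1 (14.9), Wwtr1 (8.13), Tead4 (4.01) and Lats1 (2.66). No member's range over the 6 libraries overlapped that of the next in this order. Ankrd1 ranked 65th and Lats1 8332nd of the 19535 genes in the FPKM table. The order rests on the gene lengths that the authors used, which can be read from the ratio of CPM to FPKM as about 1.74 kb for Wwtr1, 2.49 kb for Tead2, 2.89 kb for Tead3, 8.07 kb for Tead4 and 11.9 kb for Tead1.

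Among the kinases and their partner, no member was called. Lats1 was at 23.2, 28.4 and 24.0 CPM in NC 1, 2 and 3 against 24.7, 26.5 and 25.4 CPM in the siPUM2 libraries. Its groups overlapped, with NC 2 the highest of all 6, and its log2 fold change was 0.02 ± 0.0665 (SE, edgeR; adjusted p = 0.880, 95% interval -0.12 to 0.15). Lats2, which is itself a target of YAP and thereby part of a feedback loop, was at 152, 147 and 157 CPM in NC against 145, 151 and 152 CPM in siPUM2. These groups overlapped as well (log2 fold change -0.02 ± 0.0291, adjusted p = 0.590, interval -0.08 to 0.04). Lats2 made up 90.9% ± 1.15 of the summed FPKM of both kinases in NC and 90.6% ± 0.191 in siPUM2 (SD, n = 3 each; exact permutation p = 1, two-sided), so that it was the predominant LATS message in either group.

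Amotl2 encodes an angiomotin, a junction protein that binds YAP and is also a target of it. Its level was 269, 277 and 283 CPM in NC and 284, 284 and 283 CPM in siPUM2. The siPUM2 libraries lay together at the upper end of the NC range, NC 3 lay among them, and the log2 fold change of 0.04 ± 0.0260 was not called (adjusted p = 0.338, edgeR; interval -0.02 to 0.09).

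The coactivators differed in what they showed. Yap1 was at 199, 198 and 203 CPM in NC against 203, 212 and 205 CPM in siPUM2. In CPM every siPUM2 library lay above every NC library, siPUM2 1 and NC 3 by a very small margin. In FPKM NC 3 (40.69) lay above siPUM2 1 (40.59), so that the groups overlapped on that scale. The difference was not called (log2 fold change 0.05 ± 0.0265, adjusted p = 0.188, interval -0.01 to 0.10, edgeR). Wwtr1 was at 15.0, 15.3 and 14.9 CPM in NC and fell to 13.0, 12.8 and 13.7 CPM in siPUM2. The groups were well separated, the means being 15.1 ± 0.218 and 13.2 ± 0.456 CPM (SD, n = 3), a 1.15-fold fall with a log2 fold change of -0.20 ± 0.0702 and an adjusted p of 0.0351 (edgeR). In bulk RNA, fewer cells that express a gene and less of its RNA per cell cannot be told apart.

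The call for Wwtr1 was close to the threshold. It was lost with DESeq2 (adjusted p = 0.119) and, in edgeR, without NC 1 (0.0638), NC 2 (0.0952), NC 3 (0.0616), siPUM2 1 (0.0966) or siPUM2 2 (0.117), and stayed below 0.05 without siPUM2 3 (0.0379). Its log2 fold change was between -0.23 and -0.18 in all of these fits. Per length, Wwtr1 was the minor coactivator. It made up 17.9%, 18.3% and 17.5% of the summed Yap1 and Wwtr1 FPKM in NC 1, 2 and 3, and 15.6%, 14.8% and 16.1% in siPUM2 1, 2 and 3. This share lay below the NC range in every siPUM2 library, the mean difference being -2.36 percentage points, with an exact two-sided permutation p of 0.10, the smallest that 3 against 3 libraries allow (0.60 adjusted over the 6 shares tested, the lowest of the 6). The summed FPKM of both coactivators was 48.6 ± 0.602 in NC and 48.7 ± 0.742 in siPUM2 (exact permutation p = 0.70).

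The 4 TEAD factors, through which YAP and TAZ act on DNA, were all expressed, and none was called. Tead1 was at 164, 174 and 180 CPM in NC against 181, 176 and 188 CPM in siPUM2. NC 3 lay within the siPUM2 range, and the log2 fold change was 0.07 ± 0.0313 (adjusted p = 0.0919, edgeR). Without NC 3 it was 0.10 and passed (adjusted p = 0.0197), and without NC 1 it was 0.03 (0.504), so that the result for Tead1 rested on which NC library was kept. Tead2 was at 44.9, 46.3 and 43.3 CPM in NC against 45.8, 45.3 and 48.1 CPM in siPUM2, with overlapping groups (log2 fold change 0.05 ± 0.0498, adjusted p = 0.499). Tead3 was at 87.4, 86.4 and 85.3 CPM in NC, while the siPUM2 libraries were spread around that range at 90.6, 82.4 and 85.0 CPM. Its log2 fold change was -0.01 ± 0.0340 (adjusted p = 0.926, interval -0.08 to 0.06, edgeR). Tead4, known for its part in muscle differentiation and in the early embryo, was at 30.8, 32.7 and 32.9 CPM in NC against 33.1, 31.0 and 33.7 CPM in siPUM2, again with overlap (log2 fold change 0.02 ± 0.0563, adjusted p = 0.835).

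Shares within the TEAD family differed little between the groups, and by less than the permutation test could tell from their spread. Per length, Tead3 made up 45.0% ± 0.778 of the summed TEAD FPKM in NC and 43.9% ± 1.32 in siPUM2 (SD, n = 3; exact permutation p = 0.30). Tead2 held 27.1% and 27.5%, Tead1 22.0% and 22.6%, and Tead4 6.0% and 5.96%, with exact permutation p-values of 0.50, 0.40 and 0.80. By CPM, which favours long messages, Tead1 came first instead, with 51.4% ± 1.29 of the summed TEAD counts in NC and 52.4% ± 0.664 in siPUM2. Which TEAD message leads therefore depended on the scale, while on both scales each share differed by at most 1.06 percentage points between the groups. The summed TEAD level was 66.5 ± 0.660 FPKM in NC and 67.6 ± 2.02 FPKM in siPUM2 (exact permutation p = 0.40).

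**Figure D2:**
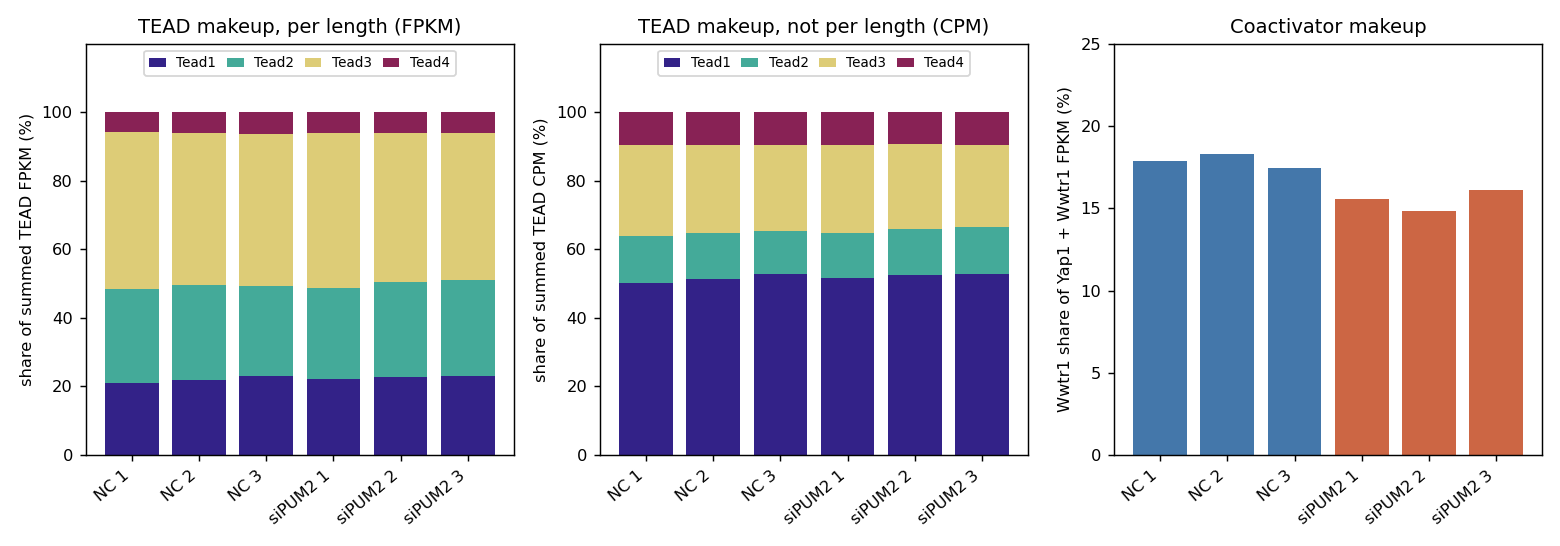
Share of each TEAD gene in the summed TEAD level of each library, in percent, by FPKM (left) and by CPM (middle), and share of Wwtr1 in the summed Yap1 and Wwtr1 FPKM (right; blue NC, orange siPUM2). Tead3 is the largest share by FPKM and Tead1 by CPM in all 6 libraries, and the Wwtr1 share is 17.5% to 18.3% in NC and 14.8% to 16.1% in siPUM2.

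Ankrd1 was the member with the largest and firmest difference. It encodes a cardiac ankyrin-repeat protein that acts in the nucleus and at the sarcomere, and it is used both as a readout of YAP and as a marker of stressed heart muscle. Its level was 2167, 2181 and 2177 CPM in NC and 2683, 2666 and 2721 CPM in siPUM2. The gap between the groups was far wider than the spread in either, the means being 2175 ± 7.38 and 2690 ± 27.8 CPM (SD, n = 3). The log2 fold change was 0.31 ± 0.0236 (SE; 95% interval 0.26 to 0.35) with an adjusted p of 5.60e-11 by edgeR. In FPKM the libraries were at 958, 964 and 966 in NC and at 1187, 1178 and 1199 in siPUM2. By size of log2 fold change Ankrd1 ranked 1787th of the 12985 tested genes, and over all 18 alternative settings its log2 fold change lay between 0.29 and 0.31.

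Markers of muscle moved in both directions between the groups. The summed level of the 11 cardiomyocyte markers was 309 to 366 CPM in NC and 474 to 527 CPM in siPUM2, almost all of it Tnnt2, with Myh7, Actn2, Tnni3 and Ryr2 near 0 in both groups. Of the 6 of these that were tested, Tnnt2 and Pln rose (log2 fold changes 0.67 and 0.83), none fell and 4 did not pass, among them Myh6 with an estimate of -0.58 (adjusted p = 0.332, edgeR). The summed level of the 8 skeletal myoblast markers was 769 to 776 CPM in NC and 926 to 960 CPM in siPUM2, a sum that is mostly Itga7, at a mean of 403 CPM in NC and 546 CPM in siPUM2. Of the 7 tested, 4 rose, 2 fell and 1 did not pass. Both sets of counts stand beside 15.1% higher and 13.3% lower of all tested genes. Among the genes that rose, Des and Mymk lost their calls with DESeq2 (adjusted p = 0.0849 and 0.0997) and, in edgeR, without NC 3 (0.120 and 0.135). Itga7 and Cdh15 kept theirs in these fits. The largest changes among the 7 myoblast markers were falls. Myog, which encodes the differentiation factor myogenin, was at 15.9, 24.4 and 19.9 CPM in NC and fell to 9.68, 9.22 and 8.79 CPM in siPUM2 (log2 fold change -1.12 ± 0.103, adjusted p = 1.86e-09). The embryonic myosin gene Myh3 fell from a mean of 1.63 to 0.847 CPM (-0.93 ± 0.267, adjusted p = 0.00909), a call that was lost without NC 1 (0.106) and with unfiltered log2(FPKM + 1) and log2(FPKM + 0.1) (0.0873 and 0.0840). The part of these changes in the rise of Ankrd1 was not tested.

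**Figure D3:**
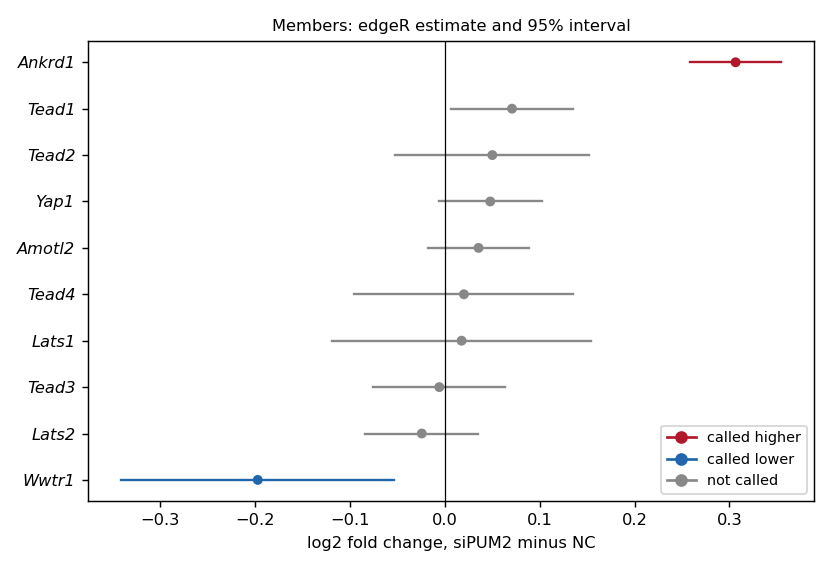
Log2 fold change of siPUM2 against NC for the 10 genes (horizontal axis), with the edgeR estimate as a point and its 95% interval, unadjusted, as a line. Ankrd1 at 0.31 and Wwtr1 at -0.20 are called, and the other 8 estimates lie within 0.07 of 0.

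Other targets of YAP and TEAD went in both directions. The list holds 19 further genes of a target signature known from other work, of which 18 were in the table and 17 were tested. Of these 3 rose, 5 fell and 9 did not pass, with a median log2 fold change of 0.00015 beside 0.0011 for all tested genes. The called share was 47.1%, beside the 28.4% of all tested genes. Of the 16 targets with a mean of at least 10 CPM 8 were called, beside 37.3% of all tested genes at that level. The classic targets Ccn1 and Ccn2, secreted matricellular proteins that carry the TEAD element in the windows printed with Amotl2 and Yap1, were not called. Ccn1 was at 668, 697 and 710 CPM in NC against 657, 675 and 677 CPM in siPUM2 (log2 fold change -0.05 ± 0.0260, adjusted p = 0.187, interval -0.10 to 0.01, edgeR). Ccn2 was at 1266, 1347 and 1300 CPM in NC against 1352, 1328 and 1367 CPM in siPUM2 (0.05 ± 0.0257, adjusted p = 0.170, interval -0.004 to 0.10). The groups overlapped for both genes, and their estimates had opposite signs.

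The targets that rose were Tgfb2, Asap1 and Ccdc80. Tgfb2, a ligand of the TGF-beta receptors, was at 177, 182 and 181 CPM in NC against 219, 220 and 228 CPM in siPUM2 (log2 fold change 0.30 ± 0.0266, adjusted p = 7.32e-10, edgeR). Its groups did not overlap, and its estimate was close to that of Ankrd1. Asap1, which regulates ARF GTPases, had a log2 fold change of 0.16 (adjusted p = 0.000115), and Ccdc80, a secreted matrix protein, one of 0.14 (0.000289).

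Those that fell were Axl, Nuak2, Foxf2, Gadd45a and Myof. Axl, a receptor tyrosine kinase, was at 281, 284 and 291 CPM in NC against 249, 255 and 249 CPM in siPUM2, without overlap (log2 fold change -0.18 ± 0.0257, adjusted p = 2.61e-06, edgeR). The kinase Nuak2 had a log2 fold change of -0.18 (adjusted p = 0.00205), the forkhead factor Foxf2 one of -0.26 (0.00216) and the stress gene Gadd45a one of -0.26 (0.00367). The calls for Foxf2 and Gadd45a were lost in limma fits of log2(FPKM + 1) without a filter (adjusted p = 0.0804 and 0.10). Myof, a membrane repair protein, was barely past the threshold at -0.07 (0.0398) and was not called without NC 2 (0.113), NC 3 (0.0764), siPUM2 2 (0.139) or siPUM2 3 (0.0929).

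Regulators of the pathway changed in both directions. Of 51 further Hippo regulators, 48 were in the table and 46 were tested. Among these 15 rose and 6 fell, 25 were not called, and the median log2 fold change was 0.07. The share that rose was 32.6%, beside 15.1% of all tested genes, and the share that fell was 13.0%, beside 13.3%. Of the 41 regulators with a mean of at least 10 CPM 14 rose and 6 fell, beside 19.5% and 17.8% of all tested genes at that level. The count that rose depended on the processing. Without a filter, limma on log2(FPKM + 1) and log2(FPKM + 0.1) called 7 and 8 regulators higher and 4 and 4 lower. Those fits also called fewer genes of all, 2246 and 2296 of 19535, beside 3692 of 12985 with edgeR. Their arrangement by role was made after their values were known, so the counts by role are a description from which nothing is read about a role.

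In the core of the cascade (Stk3, Stk4, Sav1, Mob1a and Mob1b) 1 of 5 genes fell and none rose, beside 13.3% and 15.1% of all tested genes. Stk3, Stk4 and the scaffold Sav1 were not called, with log2 fold changes of 0.12, 0.07 and 0.07 (adjusted p = 0.143, 0.414 and 0.205, edgeR). Without siPUM2 1 Stk3 passed at 0.16 (0.0492). Mob1a, the LATS cofactor, was at 120, 118 and 117 CPM in NC and fell to 110, 108 and 102 CPM in siPUM2, without overlap (log2 fold change -0.15 ± 0.0303, adjusted p = 0.000425). Its close relative Mob1b was at only 2.06 CPM in NC and 1.81 CPM in siPUM2 and was not called (adjusted p = 0.523), and reads that the counting split between the pair would make both values uncertain. Outside these 5, at the membrane, Nf2, which encodes merlin, a protein that recruits LATS, was at 126, 122 and 127 CPM in NC and fell to 117, 111 and 113 CPM in siPUM2 (log2 fold change -0.14 ± 0.0289, adjusted p = 0.000487). Of the genes arranged with Nf2, Wwc2, named after its values were seen, rose (0.18, adjusted p = 0.00423; 0.0815 and 0.0675 with log2(FPKM + 1) and log2(FPKM + 0.1), unfiltered), and Frmd6 was not called (0.0098, adjusted p = 0.831).

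Components of STRIPAK, the phosphatase complex that dephosphorylates the STK3 and STK4 kinases, rose or did not pass. Of 8 measured, 4 rose and none fell, beside 15.1% and 13.3% of all tested genes and 32.6% and 13.0% of all tested regulators. Slmap, the adaptor that brings those kinases to the complex, was at 67.9, 68.0 and 69.2 CPM in NC against 83.8, 83.8 and 83.9 CPM in siPUM2. This was the regulator with the lowest p, and its groups were far apart (log2 fold change 0.29 ± 0.0325, adjusted p = 5.44e-08, edgeR). The striatins Strn and Strn3, scaffolds of the complex, rose by log2 fold changes of 0.21 (adjusted p = 2.62e-06) and 0.19 (0.000200). The fourth was Mob4 (0.15, adjusted p = 0.0110), named after its values were seen, whose call was lost without NC 1 (0.112) and in the same unfiltered FPKM fits (0.0593 and 0.0540).

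The kinases that can activate LATS alongside STK3 and STK4 were split. Of 8 measured, 4 rose, 1 fell and 3 did not pass, beside 15.1% higher and 13.3% lower of all tested genes. Taok1 was at 76.3, 76.0 and 78.8 CPM in NC against 91.4, 90.0 and 89.3 CPM in siPUM2, without overlap (log2 fold change 0.23 ± 0.0313, adjusted p = 1.91e-06, edgeR). Larger estimates than that of Taok1 were those of Map4k2 (0.42, adjusted p = 0.00540) and Map4k3 (0.31, 0.00465), both named after their values were seen. The one that fell was Map4k4 (-0.17, adjusted p = 0.000477), named after its values were seen, which lost its call in the unfiltered FPKM fits (0.0738 and 0.0661).

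The angiomotin family went 3 ways. Amot was at 71.5, 74.2 and 68.1 CPM in NC and rose to 80.8, 85.4 and 80.4 CPM in siPUM2 (log2 fold change 0.21 ± 0.0365, adjusted p = 7.18e-05, edgeR), while Amotl2 was not called. Amotl1, named after its values were seen, fell (-0.13, adjusted p = 0.0134), but its call was lost without NC 2 (0.0503), NC 3 (0.0838) or siPUM2 2 (0.126), and with log2(FPKM + 1) both without a filter (0.170) and with one (0.0894).

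In the Ajuba family of LIM proteins, which restrain LATS, 2 of 3 members fell and none rose, beside 13.3% lower and 15.1% higher of all tested genes. Ajuba was at 182, 174 and 185 CPM in NC against 158, 153 and 158 CPM in siPUM2, with clear separation (log2 fold change -0.20 ± 0.0281, adjusted p = 2.02e-06, edgeR). Limd1 was at 56.5, 56.8 and 57.3 CPM in NC and fell to 47.9, 50.7 and 46.0 CPM in siPUM2 (-0.24 ± 0.0463, adjusted p = 0.000223). The third member, Wtip, named after its values were seen, had an estimate of the other sign and was not called (0.09, adjusted p = 0.139). Fat1, a giant cadherin upstream of the pathway, rose from 276, 296 and 302 CPM to 324, 328 and 329 CPM (0.16 ± 0.0286, adjusted p = 5.63e-05). Vgll4, a cofactor that competes with YAP for TEAD, was at 100, 107 and 105 CPM in NC against 101, 101 and 102 CPM in siPUM2, with overlapping groups, and was not called (-0.04 ± 0.0302, adjusted p = 0.388).

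**Figure D4:**
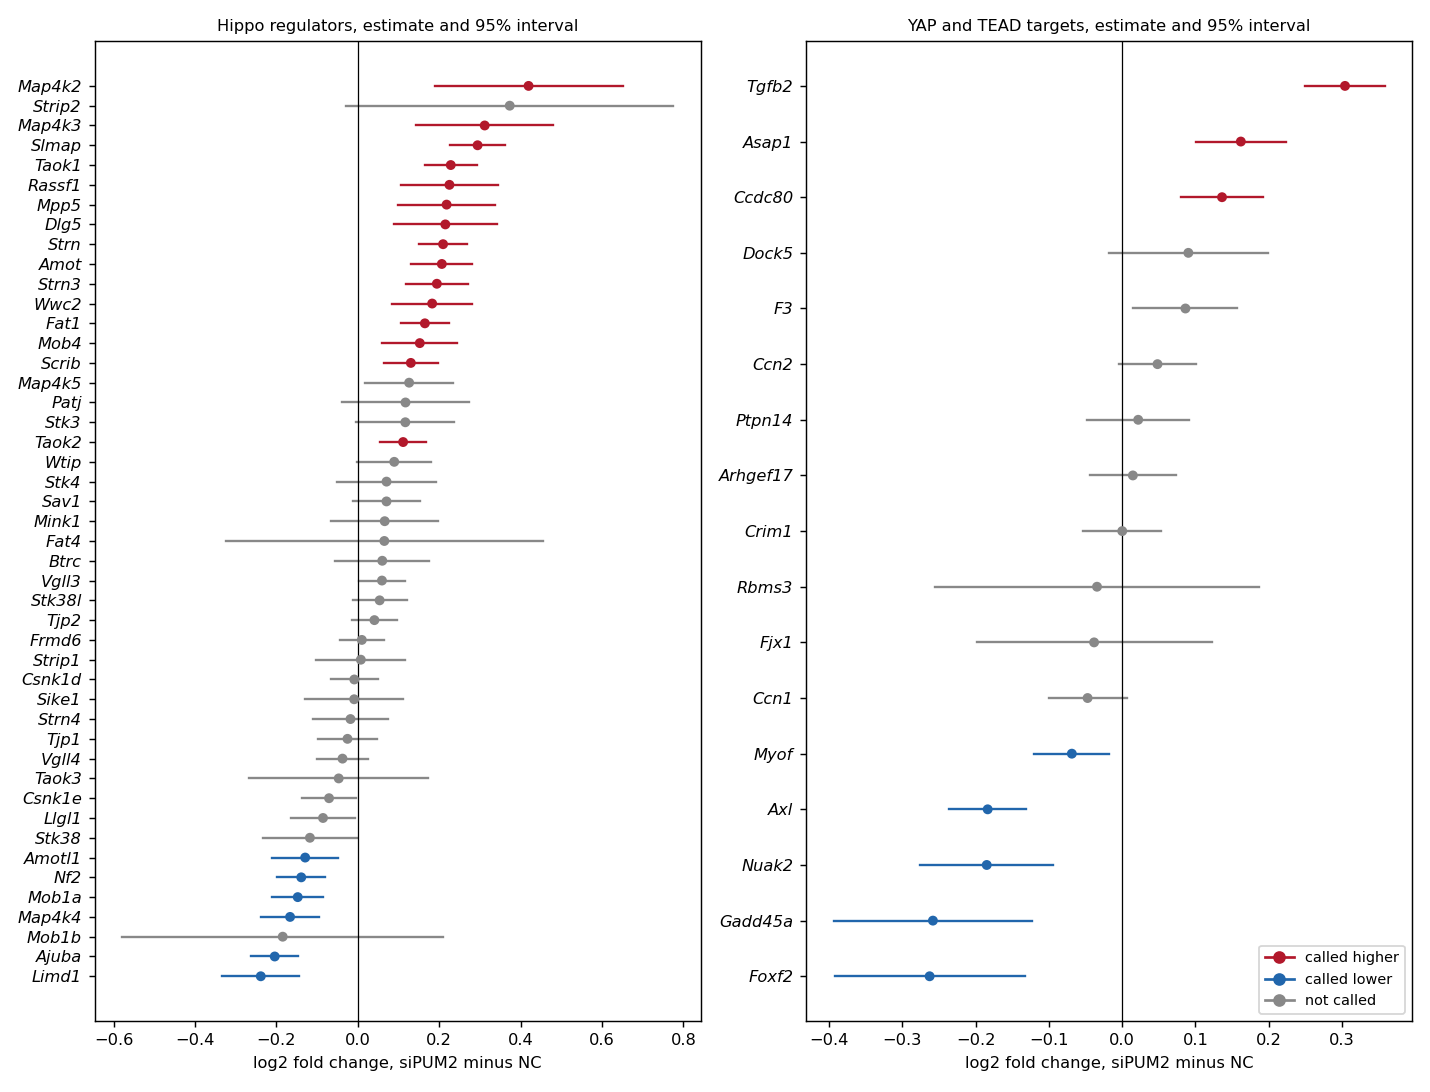
Log2 fold change of siPUM2 against NC (horizontal axes, on different scales) for the 46 tested Hippo regulators (left) and the 17 tested YAP and TEAD targets (right), each with its 95% interval from edgeR, unadjusted; red called higher, blue called lower, grey not called. Calls are 15 higher and 6 lower among the regulators and 3 higher and 5 lower among the targets, and Mpp5 is the older symbol of Pals1.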

How the data were processed

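Messenger RNA of 6 libraries was measured by RNA sequencing (polyadenylated RNA, directional paired-end libraries, per the labels' protocols). HISAT2, DESeq2 and the build mRatBN7.2 are listed in the submitters' processing notes, and which annotation or counter was used is not stated there. The authors deposited raw counts for each gene as whole numbers, and FPKM values with 2 decimals, per the file headers and values. Neither table held rows without a gene name (0) or columns of other samples (0).

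Counts were tested with edgeR 4.0.16 in R 4.3.3 (filterByExpr, TMM factors of 0.995 to 1.003, quasi-likelihood, group as the only term), with Benjamini-Hochberg adjusted p-values over the 12985 tested genes and calls under 0.05. The common biological coefficient of variation was 3.47%. SEs derive from the F statistic. Shares within gene families were tested by exact permutation over libraries. Alternatives used DESeq2 1.42.0, limma 3.58.1 (voom, and log2 FPKM with a pseudocount of 1 or 0.1), other scaling, filters and thresholds, a replicate block, and each library left out.

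The members and lists were chosen with earlier results of these data known. Named were all members, Pum2, 9 core genes and the 8 lowest p of each pathway list. Symbols were matched to those of the deposited count table, 1 gene by an older symbol taken from RefSeq (GRCr8). Igfbp3, Wwc1, Vgll1 and Vgll2 had no match in the count table, and Dchs1, Crb3 and Nt5e did not pass the filter.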

Additional observations from a re-analysis of the deposited data

How the results depend on the processing

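The fall of Pum2 was called under all 18 alternative settings. Of the 35 other named genes, 25, Ankrd1 among them, kept their direction and their side of the threshold under every setting run for them. The count of members that fell went from 1 to 0 with DESeq2, at an adjusted p under 0.01 and with the replicate block, and was 0 to 1 with a library left out. The count of members that rose was 1 to 2 with a library left out. With log2(FPKM + 1) and log2(FPKM + 0.1) without a filter, 19535 genes were tested instead of 12985. There 7 and 8 regulators rose and 2 and 2 targets fell. Of all 19535 genes, 1160 and 1176 rose and 1086 and 1120 fell. With edgeR at an adjusted p under 0.01, 1126 genes fell. Foxf2 (adjusted p = 0.0804 and 0.0689) and Gadd45a (0.10 and 0.0895) lost their calls in those unfiltered FPKM fits.

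Estimates of uncalled members changed sign when a library was left out, for Lats1 between -0.039 and 0.11, Lats2 between -0.051 and 0.00026, Tead3 between -0.045 and 0.024 and Tead4 between -0.011 and 0.055 (log2 fold change). The difference in the Lats2 share ran from -0.908 to 0.0910 percentage points and that in the Tead4 share from -0.132 to 0.0515. The cause of these changes was not tested.

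Libraries of the same number did not deviate together (correlations of 0.0342, 0.0204 and 0.00270 over genes, and NC 3 was closer to siPUM2 2 than to siPUM2 3), so the numbers were not taken as pairs. With the replicate block 3731 genes were called instead of 3692, Wwtr1 had an adjusted p of 0.0509 and Myof one of 0.0541. Counts near 2 CPM, as for Mob1b, limit what could be detected, and that interval ran from -0.58 to 0.21.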
